A study of Mus musculus with 10 samples.

Results

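The transcriptome of the normal adult dentate gyrus was described from the 5 wild-type libraries of a series of 10, the only other group being mice with a global Fndc5 knockout, which were not compared here. Each library came from the micro-dissected dentate gyrus of a wild-type male mouse on the C57BL/6 background, 10 weeks old, with no treatment given in the labels. Poly(A) RNA was read by stranded, single-end sequencing, and the deposited table gives raw counts for 24982 gene rows. The libraries are called mouse 1 to mouse 5 after their labels. No 2 libraries were identical. All comparisons below are between genes, or between the 5 mice, and none is a test between conditions.

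The dentate gyrus is the part of the hippocampus that receives the perforant path from the entorhinal cortex. Its densely packed granule neurons are glutamatergic, send mossy fibres to the hilus and to CA3, and continue to be born in adult life from stem cells of the subgranular zone. Interneurons and mossy cells of the hilus, astrocytes, oligodendrocytes, microglia and vessels share the same tissue block, so that in these bulk samples fewer cells of a type and less RNA per cell cannot be told apart.

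The 5 libraries held between 26963625 and 43802079 counts. Mouse 1 stood apart from the others in several measures: it had the lowest score of granule neuron markers, the highest score of interneuron markers and the largest share of counts in the ribosomal RNA precursor row Rn45s (1.85%, against 0.614% to 1.38% in the others). The low score was not particular to granule neurons. Scores of mural, endothelial, meningeal and oligodendrocyte markers were also lowest in mouse 1. Several spread results that rest on mouse 1 are given with and without it.

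Levels are given as counts per 1000000 (CPM, scaled between libraries by edgeR's TMM factors), and levels of different genes were compared as CPM per kb of annotated exon. A count of at least 1 CPM in every library was reached by 13208 of the 24982 rows, or 52.9%. Mean levels of 10 CPM or more were found for 9747 rows, of 100 CPM or more for 2376, and of 1000 CPM or more for 88. No count was seen in any of the 5 libraries for 5716 rows, which allows a level of up to 0.0185 CPM over the 5 libraries (3 counts; counting error only).

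Expression was spread over many genes. It took 993 genes to hold 50% of the counts of the mean library (969 to 1009 in the single libraries) and 5759 to hold 90%. The 10 highest rows together held 4.36% of counts and the 100 highest 16.5%, with 16.02% to 17.22% in the single libraries. Rows annotated as protein coding took 97.5% of counts and long intergenic non-coding RNAs 0.907%. The curves of level against rank lay on top of each other except at the first rank, which is the ribosomal RNA precursor row.

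**Figure D1:**
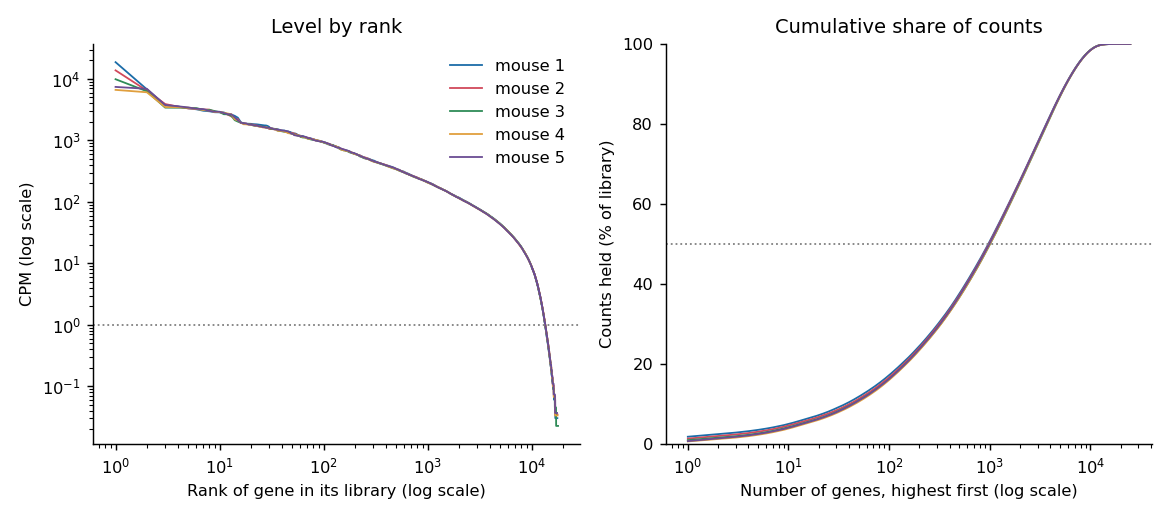
CPM of each gene against its rank (left, both axes log) and cumulative share of counts against the number of genes (right), 1 line per wild-type mouse. The dotted lines mark 1 CPM and 50% of counts; the lines cross the latter between 969 and 1009 genes.

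The highest genes included several that bind calmodulin or encode it. Neurogranin (Nrgn, chromosome 9, 37544492 to 37552904), a small postsynaptic protein that binds calmodulin, had the highest level per kb of all named genes, at 982 ± 39.9 CPM per kb (SD, n = 5). Its CPM values were 1397 in mouse 1, 1345 in mouse 2, 1453 in mouse 3, 1498 in mouse 4 and 1442 in mouse 5. Camk2a, the alpha subunit of calcium/calmodulin-dependent kinase II, reached 888 ± 32.3 CPM per kb and, among named genes, the most counts of all, with 6784, 6472, 6314, 6648 and 6920 CPM in mice 1 to 5. With the longest transcript as gene length, Camk2a stood first at 1334 CPM per kb, ahead of Nrgn at 982. The libraries of both genes lay within a narrow band. The calmodulin genes Calm3 and Calm2, which encode the same protein, followed closely, at 767 ± 32.6 and 693 ± 22.7 CPM per kb, and Calm3 was above Calm2 in all 5 mice. That order turned when the longest transcript was taken as gene length (812 for Calm3 against 844 CPM per kb for Calm2). The related Calml3 had no count and Calml4 stood at 0.0724 CPM.

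Other genes among the 20 highest per kb belong to the synapse and the dendrite. Neurochondrin (Ncdn), a neuronal protein of dendrites, reached 936 ± 32.9 CPM per kb. Dendrin (Ddn), whose RNA is carried into dendrites, stood at 767 CPM per kb, and its CPM values were 2857, 2898, 2891, 2913 and 2939. That was among the narrowest spreads of the high genes. Complexin 2 (Cplx2), which clamps and promotes vesicle fusion, reached 689 ± 13.8 CPM per kb. Carboxypeptidase E (Cpe), which trims neuropeptide precursors, reached 672 CPM per kb, and the secreted olfactomedin Olfm1 526.

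Further genes among the 20 serve general cell functions, ion pumping and glia. They include Actb (cytoplasmic beta-actin, 608 CPM per kb), the chaperone Hsp90ab1 (606), the translation elongation factors Eef1a2 (580) and Eef1a1 (551), the sodium pump subunit Atp1b1 (538), the glycolytic enzyme Aldoa (499), the selenoprotein Selenow (496), the lysosomal protein precursor Psap (452) and the astrocyte-secreted protein Sparcl1 (530). Of the 75-base windows in the annotated transcripts of Eef1a1, 25.4% also occur in another annotated gene, so its level is uncertain.

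Ranking by counts alone gave a list that shared 10 genes with the 20 highest per kb, long transcripts collecting more reads. After Camk2a came Slc1a2, the main glutamate transporter of astrocytes (3531 ± 297.1 CPM), Ncdn (3471), the imprinted non-coding RNA Meg3 (3446 ± 208.8), Cplx2 (3394) and Adcy1, a calcium-stimulated adenylyl cyclase (3146). The calcineurin catalytic subunit Ppp3ca (2826), the microtubule proteins Map1b (2772) and Map1a (2247), Camk2b (2754), Malat1 (2219), the AMPA receptor subunit Gria1 (1913) and the spectrin Sptan1 (1872) also belonged to this group. Among all 20, Slc1a2 and Malat1 varied most between mice. The row with the most counts, Rn45s at 11197 CPM, was passed over as a ribosomal RNA precursor.

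The defining markers of the labelled tissue were present, in lists chosen with earlier results of these data known. All 10 granule neuron markers were at 1 CPM or more in every library, as against 52.9% of all rows, with a median of 34.2 CPM per kb, compared with 5.92 over all genes at 1 CPM or more. C1ql2, a secreted protein of mossy fibre synapses, was the highest at 119 CPM per kb, with 205.8, 240.1, 256.1, 243.5 and 246.9 CPM in mice 1 to 5. Stxbp6 stood at 57.9 CPM per kb, calbindin (Calb1) at 44.4 and Prox1, the transcription factor of granule cell identity, at 43.5. Prox1 measured 305.8 CPM in mouse 1 and 362.8 to 393.2 in the other 4, so that mouse 1 lay below the rest. The lowest member was Tdo2, a tryptophan-degrading enzyme of mature granule cells, at 5.09 CPM per kb.

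Markers of neighbouring hippocampal fields were present at lower levels. The 6 CA1 markers had a median of 3.23 CPM per kb. Of these, 4 were at 1 CPM or more in every library, as against 52.9% of all rows, and Spink8 lay under 1 CPM (0.387). The highest CA1 marker was Wfs1 at 7.71 CPM per kb. The 8 CA2 and CA3 markers had a median of 5.28 CPM per kb and were led by Pcp4, at 141 CPM per kb, a small calmodulin-binding protein that granule neurons also express. Hilar mossy cell markers had a median of 8.90 CPM per kb, from Sv2b at 33.8 and calretinin (Calb2) at 22.8 down to Calcrl at 0.935. Markers of the thalamus and habenula, which lie beneath the hippocampus, had a median of 1.25 CPM per kb.

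GABAergic interneuron markers were all detected, with a median of 16.8 CPM per kb. The neuropeptides cholecystokinin (Cck, 91.2 CPM per kb), somatostatin (Sst, 62.0) and neuropeptide Y (Npy, 59.1) headed the list, ahead of the GABA-synthesizing enzymes Gad1 (37.7) and Gad2 (17.9). Parvalbumin (Pvalb, 7.45), Dlx1 (1.71) and vasoactive intestinal peptide (Vip, 0.951) were the lowest. Cck, Gad1 and Npy are not restricted to interneurons in this tissue.

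Glia gave some of the strongest marker levels. The 8 astrocyte markers had the highest median of all 18 cell type lists, 60.6 CPM per kb, led by Slc1a2 (268.9) and Aldoc (177.2), with Gfap at 77.1 and Aldh1l1 lowest at 8.78. Oligodendrocyte markers had a median of 27.0 CPM per kb, from the myelin gene Mbp (84.3) to Mog (8.08). Microglia markers had a median of 11.9 CPM per kb, with C1qa at 26.6 and Tmem119 lowest at 6.59, endothelial markers 5.79, oligodendrocyte precursor markers 4.11 and mural cell markers 3.15.

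Markers of adult neurogenesis were detected. Newborn neuron markers had a median of 4.84 CPM per kb, led by Calb2, which mossy cells and interneurons share, and the transcription factor Neurod1 (19.2). Doublecortin (Dcx), the microtubule protein of migrating young neurons, measured 20.7, 25.1, 24.7, 24.0 and 21.3 CPM. Neural stem cell markers had a median of 7.08 CPM per kb and were led by Hopx at 34.7 and Sox2 at 15.2. They are in part also astrocyte genes. Of 10 proliferation genes 7 reached 1 CPM in every library, as against 52.9% of all rows. Their median was only 0.476 CPM per kb, with Mki67 at 3.03 and Top2a at 3.67 CPM.

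Markers of the choroid plexus, ependyma, meninges and blood were low. Transthyretin (Ttr), the most abundant transcript of the choroid plexus, stood at 4.54 CPM, and the choroid genes Clic6, Kcne2 and Folr1 were all under 1 CPM, while klotho (Kl), which neurons also express, stood at 29.1 CPM. Tmem212 of ependymal cells had no count. The 6 meningeal fibroblast markers had a median of 0.716 CPM per kb, the highest being Igf2 at 3.93. The haemoglobin rows Hba-a1, Hba-a2, Hbb-bs and Hbb-bt had no count. Between 51.5% and 84.6% of their 75-base windows also occur in another annotated gene, so their level is uncertain, while Alas2, the haem-synthesis enzyme of red cells, stood at 1.61 CPM.

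**Figure D2:**
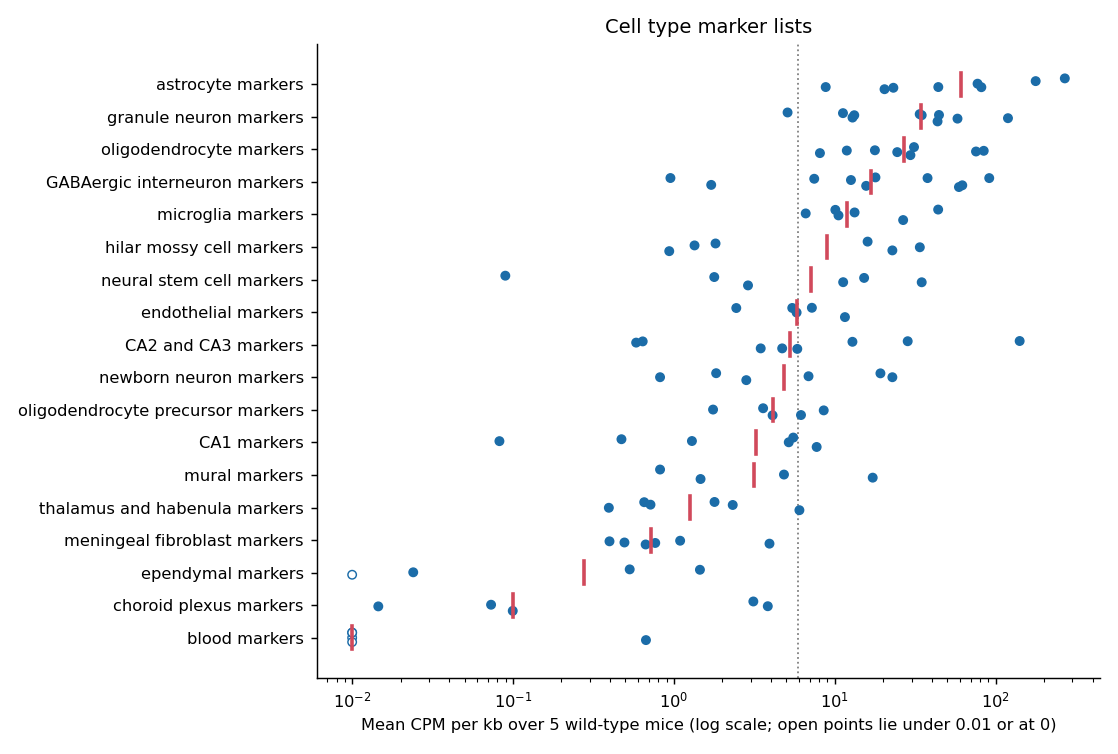
Mean CPM per kb over 5 wild-type mice (log scale) of every marker gene (points) in the 18 cell type lists, with the list median as a red bar and the median of all genes at 1 CPM or more as a dotted line at 5.92. Lists are ordered by median, from blood markers at 0 to astrocyte markers at 60.6.

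The presynaptic set was strongly expressed. Of 25 synaptic vesicle and release genes, 24 were at 1 CPM or more in every library, as against 52.9% of all rows. Together the 25 took 1.79% of counts. After Cplx2 came the vesicle SNARE Vamp2 (264.6 CPM per kb) and the plasma membrane SNARE Snap25 (254.3), with Cplx3, a complexin of the retina, lowest at 0.389. Slc17a7, the vesicular glutamate transporter of cortical and hippocampal excitatory neurons, made up 95.4% of the per-kb sum over 6 vesicular transporters (95.1% to 95.8% in the single libraries). The GABA transporter Slc32a1 gave 4.00%, and Slc17a6, typical of thalamic neurons, lay at 0.427 CPM per kb.

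Glutamate receptor subunits were ordered in nearly the same way in every mouse. Gria1 was the main AMPA receptor subunit, with 316.5 ± 7.06 CPM per kb or 77.0% of the family, ahead of Gria2 (64.6 ± 2.43), which makes the channel impermeable to calcium, Gria3 (23.2) and Gria4 (6.84), and each was above the next in all 5 libraries. The kainate subunits were led by Grik5 (62.4 CPM per kb), an auxiliary high-affinity subunit, then Grik4 (16.1). Grik3 (11.0) lay above Grik2 (9.56) in 4 of 5 libraries, so these neighbours were not separated. Among NMDA receptor subunits the obligatory Grin1 (68.1 ± 4.28) was followed by Grin2b (47.3 ± 3.58) and Grin2a (27.7 ± 1.95), each above the next in all 5 libraries, while Grin3b was at 0.242 CPM. Metabotropic receptors were led by Grm2 (31.8 CPM per kb), which sits on mossy fibre terminals, with Grm5 at 17.3. Grm6, the receptor of retinal bipolar cells, had no count.

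In the postsynaptic density, 16 of 16 genes were at 1 CPM or more in every library (52.9% of all rows were), and they held 1.97% of counts. After Nrgn, Camk2a, Ddn and Camk2b (301.9 CPM per kb) came Cnih2 (235.4), an auxiliary AMPA receptor subunit. The scaffold Dlg4 (77.1) exceeded Shank1 (64.5), Shank3 (39.6) and Shank2 (23.7). Homer1 was the lowest at 5.85 CPM per kb.

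GABA-A receptor subunits divided into abundant, minor and nearly absent members. Gabra5, a subunit of extrasynaptic receptors in the hippocampus, was among the highest at 81.5 ± 3.23 CPM per kb. Gabrb2 (28.7), Gabra4 (26.1), Gabra2 (21.8) and Gabrd (14.6) belonged to a middle group. Gabra4 and Gabrd together make the tonic receptors for which granule neurons are known. Gabra6, of cerebellar granule cells, was at 0.0948 CPM and Gabrp had no count.

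**Figure D3:**
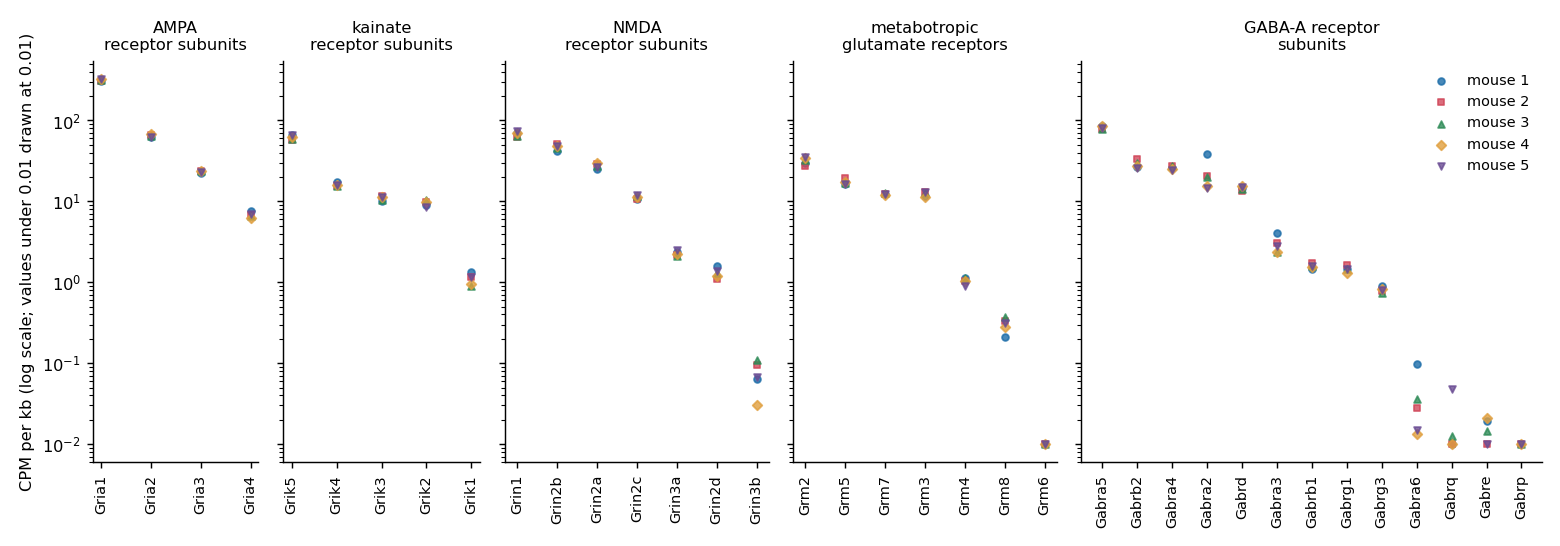
CPM per kb (log scale) of the reported glutamate and GABA-A receptor subunits, 1 point per wild-type mouse, ordered within each family by mean level. Points of 5 mice overlap for most abundant subunits, whereas Gabra2 of mouse 1 lies above the other 4 mice.

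Receptors for modulatory transmitters were detected, but the enzymes and transporters of modulatory neurons, whose cell bodies lie outside the hippocampus, were mostly near 0. Chrm1, the main muscarinic receptor, was far above the other monoamine and acetylcholine receptors at 58.4 CPM per kb, followed by the nicotinic subunit Chrnb2 (8.45) and the serotonin receptor Htr1a (7.38). Htr1b was the lowest at 0.170 CPM. Of 10 synthesis and transport genes of projection systems, 3 reached 1 CPM in every library, as against 52.9% of all rows. These were Dbh (1.95), Tph2 (1.79) and Ddc (2.53 CPM). Tyrosine hydroxylase (Th, 0.113), Chat (0.0321) and Slc6a2 (0.0286) stood near 0.

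Neuropeptides and granins were led by chromogranin B (Chgb), a core protein of dense-core vesicles, at 317 CPM per kb, and secretogranin II (Scg2) at 104.5. The opioid precursors Pdyn (14.3), a peptide of mossy fibres, and Penk (11.0) were lower, and Tac2 was lowest at 0.597. Bdnf, the neurotrophin, measured 70.5, 89.0, 82.7, 94.8 and 84.6 CPM. The 18 activity-regulated genes had a median of 5.77 CPM per kb, with Egr3 highest (33.3), Arc at 17.5, Fos at 2.33 and Egr2 lowest at 0.393 CPM per kb. Fos measured 5.26, 7.74, 5.06, 5.75 and 3.62 CPM.

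The listed transcription factors ranged from abundant members to nearly absent ones, with others such as Neurod1 (19.2 CPM per kb) in between. Neurod2 (105.3 CPM per kb), Neurod6 (74.4) and Bcl11b (39.3) were abundant. The factors En1, En2, Pax2, Pax5, Gbx2 and Otx2, not all of which are confined to the midbrain and hindbrain, were each under 1 CPM. Of 43 Hox gene rows, 38 had no count, as against 5716 of all 24982 rows, and none reached 1 CPM. Olfactory receptors had no count in 1041 of 1120 rows, with Olfr287 as the only one at 1 CPM or more in every library (mean 2.78 CPM), and vomeronasal receptors had none in 315 of 330.

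In energy metabolism, most enzyme families were led by a single isoenzyme. Glycolysis took 0.647% of counts, with a median of 82.0 CPM per kb over 16 genes. Hk1 made up 92.8% of the per-kb sum of hexokinases, and Aldoa (499 CPM per kb) 73.6% of that of aldolases against 26.1% for the astrocytic Aldoc. Pfkm (107.4) exceeded Pfkl (40.0) and Pfkp (14.7) in all 5 mice. Pkm stood at 167.5 CPM per kb while the liver form Pklr had 0.00608 CPM. Ldhb (89.9 ± 2.86), the heart-type subunit of lactate dehydrogenase, exceeded Ldha (45.2 ± 0.586) per kb in all 5 mice, and Ldhc of testis had no count. The order rests on gene length: in CPM, Ldha was the higher (149.5 against 141.2). Eno2, the neuronal enolase, stood at 154.1 CPM per kb, and no share of its family is given because the Eno1 row is uncertain.

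The level of Eno1, the general enolase, was 0.0391 CPM, and 23.0% of its 75-base windows also occur in another annotated gene, most often Eno1b. Rows for other broadly used genes were similarly near 0, namely the ribosomal protein Rpl30 (0.141 CPM, 6.37% shared windows) and the ATP synthase subunit Atp5l (0.725 CPM, 4.91%). The urea cycle enzyme Ass1 had no count, with 32.6% of windows shared. Whether read assignment made these low values was not tested.

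In the mitochondrial pathways most listed genes were at 1 CPM or more in every library, as against 52.9% of all rows. All 18 genes of the tricarboxylic acid cycle (median 37.5 CPM per kb, lowest Dlst at 13.9) and all 32 listed complex I subunits (median 32.5, from Ndufb9 at 78.7 to Ndufb4 at 3.44) reached 1 CPM in every library. Of 26 genes of complexes III and IV and cytochrome c, 20 did so, with Cox8a (256.4) and Cox6a1 (198.3) highest. The tissue-specific forms Cox7a1, Cox4i2, Cox6b2 and Cox8b and the testis cytochrome Cyct were under 1 CPM. Atp5a1 (225.0) and Atp5b (201.8) led ATP synthase. Mitochondrially encoded genes were not analysed here.

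Fatty acid oxidation had a median of 6.22 CPM per kb, near that of all genes at 1 CPM or more (5.92). Its highest listed genes were Cpt1c (25.9), the brain form of carnitine palmitoyltransferase, and Etfb (18.5), while Cpt1b of muscle was at 0.162 CPM. Cholesterol synthesis had a median of 9.43 CPM per kb, from Hmgcs1 (42.8) to Idi1 (0.647). The urea cycle and gluconeogenesis were nearly silent, with no count for Otc and Pck1. Asl was the only 1 of 8 genes at 1 CPM or more in every library, as against 52.9% of all rows. Ckb (146.0) gave 74.7% of creatine kinases, whereas Ckm of muscle had no count. Glucose transporters were led by the neuronal Slc2a3 (24.9) and the vascular and glial Slc2a1 (18.3), and Slc2a4 was at 0.591 CPM.

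Structural and housekeeping families were led by a few members. Actb gave 92.7% of the per-kb sum of actins, but 33.1% of the windows of the next member, Actg1, are shared with another gene. Tubb4a (201.4 ± 15.4 CPM per kb) and Tubb2a (200.1 ± 6.11) were the highest tubulins and were not separated, since Tubb4a was above in 1 of 5 libraries. The level of Tubb2a is uncertain, as 43.2% of its windows are shared with another gene. Tuba1a (175.9) came next, but 54.1% of its windows are shared with another gene, so its order is uncertain. The 46 cytosolic ribosomal proteins had a median of 45.4 CPM per kb, led by Rplp1 (343.4), 45.9% of whose windows are shared with another gene. Fndc5, the gene deleted in the other group of the series, which encodes the precursor of irisin, measured 78.8, 68.8, 72.1, 80.1 and 75.6 CPM in these wild-type mice, or 27.2 CPM per kb.

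Promoter sequence was also set against level. RefSeq promoter windows (GRCm38.p6) were matched by symbol to 18246 of the rows, and the 250 bases before the start were read. The median ratio of observed to expected CpG was 0.148 in rows with no count, 0.305 in rows counted but under 1 CPM, 0.64 from 1 up to 10 CPM, 0.783 from 10 up to 100 CPM and 0.809 at 100 CPM or more. The letters TATAAA, searched on the coding strand from 45 to 16 bases before the start, occurred in 6.49% of rows with no count and 1.18% of rows at 100 CPM or more. No test was applied, since genes are not replicates.

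Spread between mice was expressed as the biological CV, the SD in percent of the mean after the counting error is taken out. Its median over 13543 genes with a mean of 1 CPM or more was 5.29%, with quartiles of 2.87% and 8.69%. A biological CV of 30% or more was found for 93 genes (0.687%) and of 20% or more for 420. The spread depended on level: the median was 8.51% from 1 up to 10 CPM, 5.09% from 10 up to 100, 4.25% from 100 up to 1000 and 3.84% above, and 80 of the 93 genes lay in the lowest class, where the counting error alone had a median of 8.86%. Of the 93, 27 were highest in mouse 1, 24 in mouse 2, 20 in mouse 5, 12 in mouse 4 and 10 in mouse 3. With mouse 1 left out the median was 4.56% and 87 genes passed, 60 of them among the 93.

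**Figure D4:**
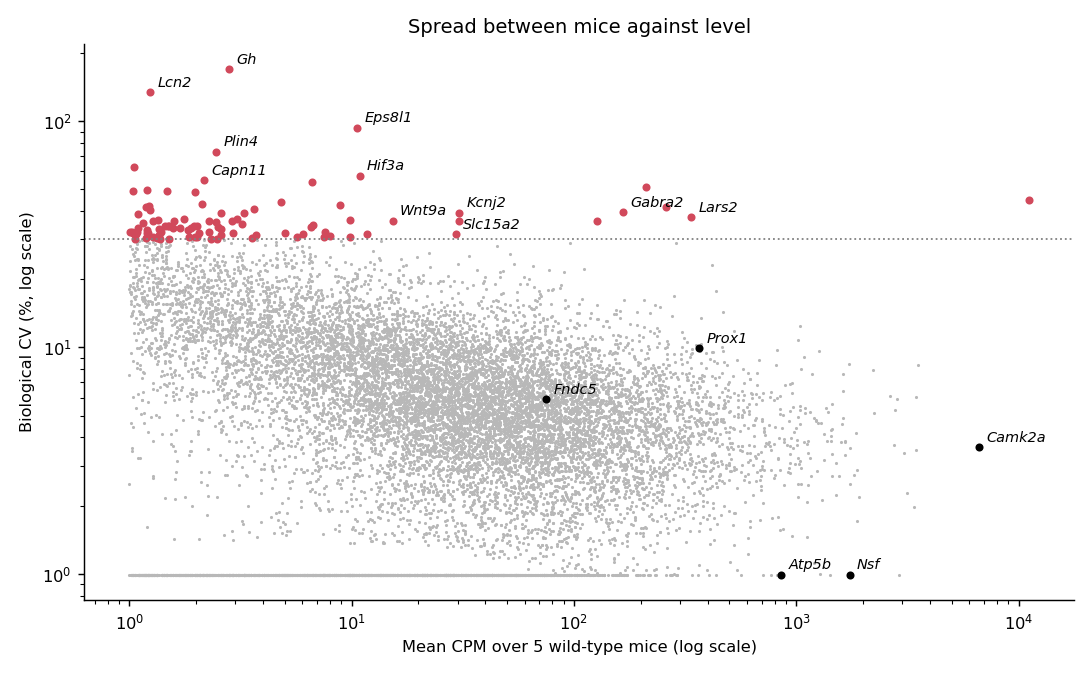
Biological CV (%, log scale) against mean CPM over 5 wild-type mice (log scale) for 13543 genes. Red points are the 93 genes at 30% or more, above the dotted line; the row of points at 0.988% holds the 1903 genes at the lowest value the estimate gives.

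The most variable gene was Gh, growth hormone (chromosome 11), a product of the anterior pituitary. Its levels were 0, 1.18, 6.50, 0.706 and 5.65 CPM in mice 1 to 5, a biological CV of 170%, or 94.4% without mouse 1. Mice 3 and 5 were high and mouse 1 had no count. Prolactin (Prl), another anterior pituitary hormone, was under 1 CPM on average but stood in the same order of mice, with 0.122, 0.486, 1.54, 0.202 and 1.14 CPM. Pomc, the precursor of corticotropin, stood in another order, with 2.05 CPM in mouse 4 and 0.334 to 0.795 in the others. The part of other tissue in these values was not tested.

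Lcn2, an iron-carrier-binding protein induced in inflammation, came next with a biological CV of 134%. It was at 4.61 CPM in mouse 5 and at 0.912, 0.347, 0.273 and 0.0672 in mice 1 to 4. Without mouse 5 its mean fell under 1 CPM and no CV was estimated. Eps8l1, an actin regulator, had 20.3, 3.23, 1.39, 11.1 and 17.2 CPM, so that mice 1, 4 and 5 were high and mice 2 and 3 low, with a biological CV of 93.7%. The lipid droplet protein Plin4 (2.92, 0.694, 1.05, 2.35 and 5.28 CPM, biological CV 73.4%) and the hypoxia-inducible factor Hif3a (14.4, 4.48, 6.29, 9.18 and 20.1 CPM, 57.5%) showed the same division. Other genes among the 20 most variable were Vgll3, Capn11, Col6a4, Galnt15, Ddias, Zfp369, Ccn2, Bub1b, Onecut1, Mid1, Acr, Slc22a6, Myof, Mboat1 and Gabra2, with biological CVs from 62.8% (Vgll3) to 39.6% (Gabra2). Leaving out 1 mouse brought Col6a4 to 20.1% (without mouse 4) and Mid1 to 21.96% (without mouse 1). Vgll3 had no estimate without mouse 1 or without mouse 2.

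Gabra2 was the most variable gene at 100 CPM or more once ribosomal RNA, microRNA and pseudogene rows were passed over. It stood at 294.9 CPM in mouse 1 and at 156.2, 151.5, 119.0 and 112.3 in mice 2 to 5, and without mouse 1 its biological CV was 16.5%. Gabra2 belongs to a list of genes known to differ between C57BL/6 substrains. Of the others, Nnt stood at 21.6 to 23.6 CPM with mouse 1 highest, and Wdfy1 at 22.9 to 31.3 CPM with mouse 1 lowest. Entpd4 had no count, but all of its windows are shared with another gene. The part of substrain in these values was not tested.

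The further genes among the 10 most variable at 10 CPM or more were the potassium channel Kcnj2 (17.6, 50.5, 23.6, 34.3 and 26.6 CPM), the ligand Wnt9a (9.74 to 24.2 CPM), the peptide transporter Slc15a2 (20.4 to 43.7 CPM), Pcdhga8, Glt8d2 and Cpne7. The biological CV of Kcnj2 was 39.5%, or 27.0% without mouse 2, and that of Wnt9a 36.3%, or 25.9% without mouse 4. That of Slc15a2 was 31.6%, or 23.2% without mouse 3. For Pcdhga8 it was 31.6%, or 24.1% without mouse 2 and 28.1% without mouse 1. Glt8d2 (29.5%) and Cpne7 (28.97%, or 20.01% without mouse 1) lay just under 30%.

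Lars2, the mitochondrial leucyl-tRNA synthetase, moved with the ribosomal RNA precursor row. The CPM values of Lars2 were 529.9, 409.9, 279.3, 204.6 and 263.6, a biological CV of 37.6%, or 28.8% and so under 30% without mouse 1. Rn45s and the microRNA row Mir6236 stood in the same order of mice (1, 2, 3, 5, 4), with a ratio of highest to lowest of 3.09 for Rn45s, 2.84 for Mir6236 and 2.59 for Lars2. These rows were grouped after values were seen, so the shared order is no separate evidence. Whether reads of ribosomal RNA were counted in the Lars2 row was not tested.

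At the other end, 1903 genes shared the lowest biological CV that the estimate gives, 0.988%, and are not ranked by it. Among those at 10 CPM or more, the 10 with the smallest plain CV of CPM were Ino80c, a chromatin remodelling subunit, Clptm1l, Tspyl1, Med24 of the Mediator complex, Zfp384, Ppp1r11, Snx19, Sart1 of the spliceosome, Atp5b and Nsf, the ATPase that takes SNARE complexes apart. Nsf had 1757, 1744, 1730, 1729 and 1739 CPM, and Atp5b 860.2, 846.6, 856.3, 859.4 and 853.7.

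Gene lists were also followed across the mice. A score per mouse was formed as the mean log2 difference of list members from their own average over the 5 mice. Granule neuron markers scored lowest in mouse 1 (-0.15, against 0.02 to 0.06 in the others), and interneuron markers highest in mouse 1 (0.20, against -0.08 to -0.03). The members were not uniform: 6 of the 10 granule neuron markers were lowest in mouse 1, and 6 of the 10 interneuron markers highest. The share of all genes lowest or highest in mouse 1 was not counted. Mouse 1 was also lowest for 7 of 8 oligodendrocyte markers and 4 of 4 mural markers. It was highest for 13 of 15 glycolysis genes with a mean of 1 CPM or more. Gad2 stood at 131.5 CPM in mouse 1 and 92.9 to 106.0 in the others, whereas Npy stood at 34.7 CPM in mouse 1 and 31.9 to 35.1 in the others. Meningeal fibroblast markers had the widest range of the cell type lists with all markers detected, from -0.29 in mouse 1 to 0.30 in mouse 5, and the astrocyte list had the narrowest of those drawn, from -0.04 to 0.05. Newborn neuron markers were highest in mouse 3 (0.19).

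A list of glucocorticoid-responsive genes, drawn up after the variable genes had been seen and so no separate evidence, scored 0.29, -0.31, -0.29, -0.11 and 0.42 in mice 1 to 5. Hif3a, Plin4 and Lcn2 are among its 16 members. Tsc22d3, a direct target of the glucocorticoid receptor, had 65.4, 33.0, 36.5, 38.9 and 50.8 CPM, and the metallothionein Mt2 60.6, 38.2, 37.3, 56.9 and 65.3. Both were lower in mice 2 and 3 than in mice 1 and 5. Pdk4 did not share this order, with 7.45, 9.51, 9.31, 8.30 and 6.79 CPM. The scores of the meningeal and endothelial lists were also highest in mouse 5 but lowest in mouse 1. Of the 5 endothelial markers, however, 4 were highest in mouse 2. The part of these markers in the glucocorticoid-responsive scores was not tested.

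Endoplasmic reticulum chaperones formed the other such group, from a list likewise drawn up after seeing values. It scored 0.04, 0.27, 0.18, -0.32 and -0.17 in mice 1 to 5. Hspa5, the chaperone BiP, stood at 308.5, 392.4, 322.0, 190.5 and 219.6 CPM. Hsp90b1 stood at 375.1, 537.0, 505.5, 328.5 and 336.0 CPM, Calr at 410.3, 541.7, 499.3, 358.2 and 380.8, and Pdia4 at 61.7, 67.2, 57.9, 37.8 and 44.8. Mice 4 and 5 were the lowest in all 4 genes. Atf4, a transcription factor of the integrated stress response, stood in another order, with its lowest value, 68.8 CPM, in mouse 1.

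**Figure D5:**
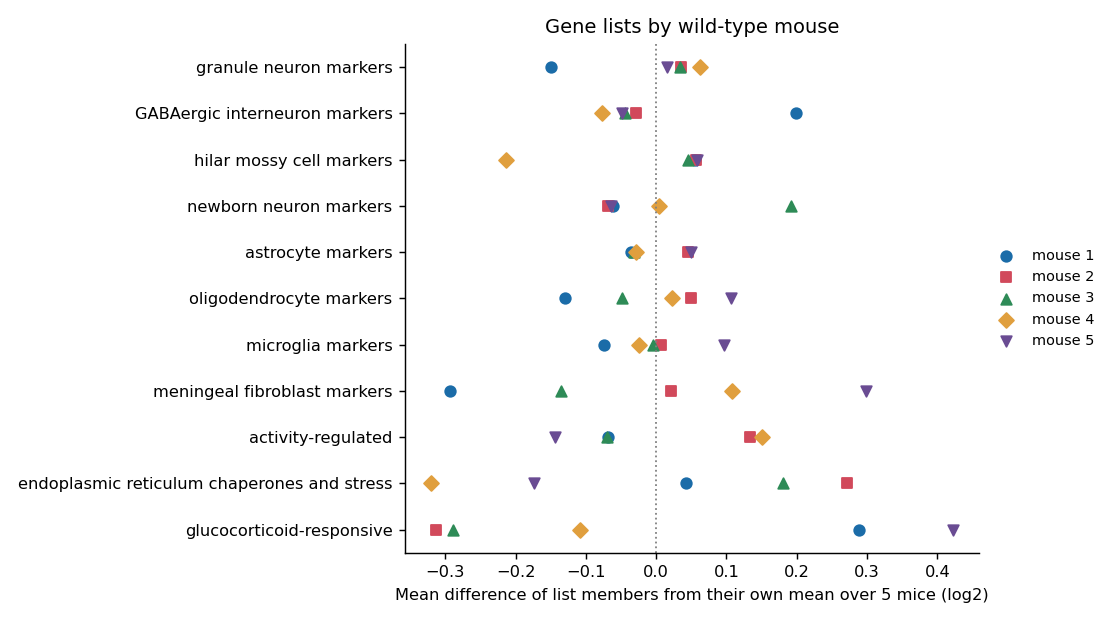
Score of selected gene lists (mean log2 difference of members from their own mean over 5 mice), 1 symbol per wild-type mouse. Mouse 1 lies apart for granule neuron and interneuron markers, and the widest ranges are those of the glucocorticoid-responsive list (-0.31 to 0.42), the meningeal markers and the endoplasmic reticulum chaperones.

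The promoters of the chaperones are also shown. Of the 16 listed genes, 13 were highest in mouse 2 and 13 lowest in mouse 4. Since the list was drawn up after values were seen, these counts are no separate evidence. The share of all genes highest in mouse 2 or lowest in mouse 4 was not counted. The unfolded protein response is known to act through a defined element in such promoters, the ER stress element. Its part in these values was not tested. The letters searched, on both strands, were CCAAT and CCACG with 9 bases of any kind between them; the first 5 letters are also those of a CCAAT box. Of 14 listed genes with a window, 6 held it (42.9%), namely Calr, Canx, Creld2, Hsp90b1, Hspa5 and Pdia6, against 28 of all 18246 windows (0.153%). The element was first described in promoters of this kind, so the count is a description of the list. The windows below give the 250 bases before the RefSeq start, 5′ to 3′ on the strand of the gene, with each match in capitals: Hspa5 at chr2:34771840-34772089 (plus strand), Hsp90b1 at chr10:86705445-86705694 (minus), Calr at chr8:84846932-84847181 (minus) and, without a match, Pdia4 at chr6:47813513-47813762 (minus).
Hspa5: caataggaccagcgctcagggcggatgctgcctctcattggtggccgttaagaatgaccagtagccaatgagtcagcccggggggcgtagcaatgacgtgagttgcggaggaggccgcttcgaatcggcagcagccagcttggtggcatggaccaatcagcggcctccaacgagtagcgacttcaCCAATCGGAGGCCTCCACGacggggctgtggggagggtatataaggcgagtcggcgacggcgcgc
Hsp90b1: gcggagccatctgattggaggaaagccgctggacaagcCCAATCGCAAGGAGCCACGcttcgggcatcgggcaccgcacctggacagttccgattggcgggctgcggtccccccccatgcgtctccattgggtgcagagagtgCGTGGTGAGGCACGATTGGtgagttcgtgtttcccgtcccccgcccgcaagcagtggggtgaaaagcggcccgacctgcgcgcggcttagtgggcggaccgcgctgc
Calr: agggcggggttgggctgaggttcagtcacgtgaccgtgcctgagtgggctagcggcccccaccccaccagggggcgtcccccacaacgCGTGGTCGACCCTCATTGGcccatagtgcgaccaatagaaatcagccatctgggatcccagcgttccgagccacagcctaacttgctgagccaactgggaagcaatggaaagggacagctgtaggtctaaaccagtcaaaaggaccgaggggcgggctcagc
Pdia4: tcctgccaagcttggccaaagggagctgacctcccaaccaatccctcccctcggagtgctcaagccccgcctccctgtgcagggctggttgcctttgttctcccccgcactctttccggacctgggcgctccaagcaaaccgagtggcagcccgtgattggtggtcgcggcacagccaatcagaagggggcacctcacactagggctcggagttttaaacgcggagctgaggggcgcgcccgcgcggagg

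Hsp90b1 held 2 matches, 1 on each strand, and Hspa5 and Calr 1 each. The absence of these letters from the window of Pdia4, whose level was also lowest in mice 4 and 5, says only that the exact letters are not in these bases.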

How the data were processed

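Raw read counts per gene were taken from the authors' deposited table, whole numbers for 24982 gene symbols, 1 column per mouse. The 5 wild-type columns were used. Per the labels' protocols, a stranded poly(A) kit was used on 500 ng of RNA, with single-end reads of 75 bases. The submitters' processing notes name STAR 2.5.1b, Cufflinks 2.2.1 and mm10, with no role or order. For the strand setting, the annotation and multi-mapping reads, the method is not given in the sources used here. The labels name 1 mouse per library, and the spread between libraries holds both animal and technical differences.

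Depth was 26963625 to 43802079 counts per library. Counts were scaled with TMM factors (0.983 to 1.01) in edgeR 4.0.16 (R 4.3.3). Exon lengths came from the merged exons of GENCODE M21 (GRCm38), matched by symbol for 24552 rows. The biological CV is the square root of edgeR's tagwise dispersion from an intercept-only model over genes with a mean of 1 CPM or more, with no shrinkage (prior degrees of freedom of 0). On simulated data (13540 genes) it gave a median of 28.3% for a true CV of 30% and 45.4% for 50%. There, edgeR's default shrinkage gave 15.1% and 20.8%, and the unshrunk estimate was chosen for this reason. In the simulation 13342 genes shared a true CV of 10%, whereas the mice had quartiles of 2.87% and 8.69%. Shrinkage on such a mix of CVs was not simulated. Of the genes at 10%, the unshrunk estimate put 0.0899% at 30% or more. With 5 libraries, 43.4% of genes with a true CV of 30% passed that threshold. List scores used log2(CPM + 0.1).

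Named genes were the 20 highest by CPM per kb and by CPM, the 2 highest and the lowest of each list, family members in order, the 20 most variable at 1 CPM or more, the 10 most and 10 least variable at 10 CPM or more, and Fndc5. Predicted genes, pseudogenes, clones and small RNA rows were passed over (4895 rows). Any further gene was picked with its values in view. The 61 gene lists, and 3 more added later, were chosen with earlier results of these data known. Alternatives were DESeq2 1.42.0 size factors and dispersions, scaling by total counts, other minimum levels, other gene lengths, omission of Rn45s, and omission of each mouse in turn. The share of 75-base windows found in another annotated gene was counted over GENCODE transcripts. Some genes that the rule names are not reported here. No test between conditions was made.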

Additional observations from a re-analysis of the deposited data

Results flagged for a closer look

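Among 287 sets of 5 values (named genes with a mean of 1 CPM or more, list scores and library measures), 25 held a mouse far from the other 4, judged by the gap to its neighbour divided by the whole range (above 0.71). Chance alone flags about 1 in 20 such sets, or 14.3 here, and sets that share genes are not independent. Mouse 1 was the one apart in 14 of the 25, mice 2 and 5 in 4 each, mouse 4 in 2 and mouse 3 in 1.

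In mouse 1, Gabra2 stood at 295 CPM (112 to 156 in the others), Vamp2 at 1077 (972 to 1000), Psap at 1303 (1213 to 1235) and Med24 at 122 (120 to 121). Med24 was also among the 10 least variable genes, and its plain CV of 0.483% lay under its counting error of 1.595%. Tubulins were high in the same mouse, Tuba4a at 421 CPM (351 to 369), Tubb3 at 146 (112 to 119), Tubb4a at 507 (423 to 446) and Tubb4b at 113 (90.5 to 94.2). The glycolytic genes Eno2 at 772 CPM (702 to 719) and Pkm at 898 (815 to 831) were also high, as was the pyruvate kinase list (score 0.10). Pecam1 was low at 12.6 CPM (15.5 to 16.3). The granule neuron list scored -0.15 and the interneuron list 0.20 in this mouse. The share of counts in Rn45s was also highest there, and its part in these values was not tested.

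In mouse 2, Cck was low at 110 CPM (120 to 124), Cox6a1 at 131 (140 to 143) and Neurod2 at 288 (333 to 351), and the choroid plexus list scored -0.30. The newborn neuron list was high in mouse 3 at 0.19. In mouse 4 the mossy cell list was low at -0.21 and the sodium channel list at -0.038. In mouse 5, Lcn2 was high at 4.61 CPM (0.0672 to 0.912), C1qa at 35.4 (24.96 to 26.7) and Slc2a5, a fructose transporter of microglia, at 5.05 (3.38 to 3.71), and the fatty acid oxidation list scored 0.042.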

How the results depend on the processing

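Genes at 1 CPM or more in every library ranged from 13208 to 13228 under the other scalings and without Rn45s, and from 13232 to 13286 with single mice left out. A minimum of 0.5 CPM gave 13932 and one of 5 CPM 10946. Genes holding 50% of counts ranged from 989 to 998 with single mice left out and came to 1033 when ranked by CPM per kb, and rows with no count from 5859 to 5968. The share of counts in the 100 highest genes fell to 15.6% without Rn45s and was 16.3% to 16.6% with single mice left out. Spread depended more on settings. The median biological CV was 6.21% with no filter on level and 6.75% with edgeR's default shrinkage (added after seeing the data), and 4.56% (without mouse 1) to 5.33% with single mice left out. The 93 genes at 30% or more became 1554 with no filter, 13 at a mean of 10 CPM or more, 11 with default shrinkage, and 87 to 123 with single mice left out, of which 60 to 81 were among the 93. DESeq2 dispersions gave 93 genes, 92 of them the same. Of 25 named genes at 30% or more, 8 fell under it without some mouse and 6 more had no estimate without some mouse. Longest-transcript lengths raised the level per kb of genes at 1 CPM or more by a median factor of 1.25 and put Camk2a first (1334 CPM per kb), with 16 of the 20 highest shared. With these lengths 139 of 281 gene levels per kb and 41 of 63 list medians moved by more than 1 SD, and 18 of 20 families kept their leading gene. Depth limits genes under 10 CPM most, where counting error is as large as the spread. No paired analysis was possible because a single group was described and no test was made.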

Other observations

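Keratin and collagen rows were examined as gene families named by prefix. Of all rows, 52.9% were at 1 CPM or more in every library. Of 54 keratin rows, 7 were at 1 CPM or more in every library, the highest being Krt222 at 32.3 CPM. Of 45 collagen rows, 32 were, led by Col4a2, a basement membrane chain, at 108.1 CPM. All 22 rows of the protocadherin gamma cluster, whose products give neurons their surface identity, were at 1 CPM or more in every library, led by Pcdhgc5 at 134.5 CPM.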
